A study of Mus musculus with 25 samples.

Results

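The 10 genes of fatty acid synthesis, elongation and desaturation described here were followed across 25 RNA sequencing libraries of cultured mouse cortical astrocytes. They were picked by symbol from the deposited table, with earlier results of these data known, and all 10 were present among its 54429 entries. Shares of all tested genes printed beside their counts are therefore descriptions. They are Srebf1, a transcription factor gene; Acly, Acaca and Fasn, whose enzymes build the saturated chain; Elovl6, Scd1 and Scd2, whose enzymes lengthen it and add its first double bond; and Elovl5, Fads1 and Fads2, whose enzymes make long polyunsaturated chains. In short, 7 of the 9 testable genes fell with the EGFR inhibitor, where 22.2% of all tested genes were called lower, and 8 of 9 fell after withdrawal of HBEGF, where 22.5% were. The HBEGF count was 5 under either of 2 rescalings and 0 with that experiment fitted alone. None passed with the P53 inhibitor (0.181% of all tested genes did). Between day 14 and day 2 of culture 6 were higher and 1 lower, where 5.55% of all tested genes were called higher and 17.6% lower; with that experiment fitted alone 2 were higher.

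The cells came from the cortex of C57BL/6J mice and were purified by immunopanning, in which an antibody to HepaCAM, a surface protein of astrocytes, holds the cells on a dish. The 9 groups were cells given an EGFR inhibitor from day 2 in vitro (3 libraries) and their DMSO control (3), cells without HBEGF from the day of preparation (2) and cells given HBEGF on that day (2), cells given a P53 inhibitor from day 2 (3) and their own DMSO control (3), and cultures with no inhibitor named in their labels, of days 2, 7 and 14 in vitro (3 each). HBEGF is a growth factor that binds the receptor EGFR, and P53 is a transcription factor of the damage response. The inhibitors' identities and doses, the day on which treated cells were collected and the factors in the medium of the other groups are not stated by the labels. Whether libraries of a group came from separate cultures or animals is not stated either, so each p-value reflects the spread among these libraries alone, and that spread may be technical.

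Fatty acid synthesis starts in the cytosol with citrate. ATP citrate lyase (Acly) cuts it to acetyl-CoA, acetyl-CoA carboxylase 1 (Acaca) turns acetyl-CoA into malonyl-CoA, and fatty acid synthase (Fasn) joins these units into palmitate. Elovl6 lengthens palmitate to stearate, and the stearoyl-CoA desaturases Scd1 and Scd2 introduce a double bond to give oleate and palmitoleate. Elovl5 and the desaturases Fads1 (delta-5) and Fads2 (delta-6) convert essential fatty acids from the diet into arachidonate and docosahexaenoate, which astrocytes are known to supply to neurons. Srebf1 encodes SREBP-1, the factor that switches on most of these genes, and is itself known to respond to insulin and to the oxysterol receptors LXR.

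By GENCODE M21 on GRCm38, 4 of the genes lie on chromosome 11 and 4 on chromosome 19. On chromosome 11 they are Srebf1 (60199089 to 60222581, minus strand), Acaca (84129672 to 84401651, plus strand), Acly (100476353 to 100528000, minus strand) and Fasn (120805846 to 120824547, minus strand). On chromosome 19 they form neighbouring pairs, Fads2 (10062765 to 10101746, minus strand) with Fads1 (10182888 to 10196877, plus strand), 81.1 kb apart, and Scd2 (44293674 to 44306864, plus strand) with Scd1 (44394455 to 44407879, minus strand), 87.6 kb apart. Elovl6 lies on chromosome 3 (129532355 to 129638495, plus strand) and Elovl5 on chromosome 9 (77917364 to 77984519, plus strand). Over 1238 aligned bases the longest Scd1 and Scd2 transcripts were 88% identical, and 145 of the 4783 stretches of 50 bases in Scd1 also occur in Scd2. Reads from those stretches cannot be assigned with certainty, so the levels of this pair carry that limit; the longest Fads1 and Fads2 transcripts shared no such stretch. Srebf1 overlaps the neighbouring gene Rai1 on the other strand, and whether reads were counted by strand is not stated, so reads of the pair may mix. Acaca overlaps Gm11437 on the other strand and Gm37391 on its own. Elovl6 overlaps Gm35986 on the other strand and Gm43072 on its own, so both carry a similar limit.

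Promoters of some of the genes are shown here for the letters they hold. RefSeq's GRCm38.p6 promoter table, which gives 250 bases before and 50 after a start site, matched 7 of the 10 genes with 9 start sites; Scd1, Scd2 and Fads1 had none. Both strands of each were searched for the sterol regulatory element TCACNCCAC, the NF-Y box CCAAT, the GC box GGGCGG, the E-box CACGTG and an LXR element. The NF-Y box was found at 5 of the 9 start sites, in 4 genes (Fasn, Acly, Elovl5, Srebf1), against 37.4% of all 32851 promoters in the table; by gene that is 4 of 7, against 41.1% of all genes. Acaca, Elovl6 and Fads2 had none. The Acaca window in that table (84195188 to 84195487) lies inside the gene, which begins at 84129672, and the region of that beginning was not searched. Genes called lower with the EGFR inhibitor included Elovl6 as well as Fasn, Acly, Elovl5 and Srebf1. Any link between the box and the response was not tested. The promoters of Fasn, Acly and Elovl5, with this box, and that of Fads2, without it, are printed in full as examples, with NF-Y boxes of either strand in capitals and any overlap run together:
Fasn, chr11:120824498-120824797, minus strand: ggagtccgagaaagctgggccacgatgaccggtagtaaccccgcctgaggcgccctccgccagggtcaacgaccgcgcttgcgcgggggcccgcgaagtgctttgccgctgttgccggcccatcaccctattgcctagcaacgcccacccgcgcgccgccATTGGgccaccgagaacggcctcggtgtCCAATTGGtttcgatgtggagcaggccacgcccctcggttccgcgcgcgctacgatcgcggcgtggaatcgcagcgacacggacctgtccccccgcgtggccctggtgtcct
Acly, chr11:100527951-100528250, minus strand: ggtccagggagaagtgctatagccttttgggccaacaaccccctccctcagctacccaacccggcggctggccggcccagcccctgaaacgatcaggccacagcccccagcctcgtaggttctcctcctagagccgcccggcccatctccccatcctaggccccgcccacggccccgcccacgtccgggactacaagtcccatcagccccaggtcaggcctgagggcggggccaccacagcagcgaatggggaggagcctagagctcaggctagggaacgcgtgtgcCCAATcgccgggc
Elovl5, chr9:77917115-77917414, plus strand: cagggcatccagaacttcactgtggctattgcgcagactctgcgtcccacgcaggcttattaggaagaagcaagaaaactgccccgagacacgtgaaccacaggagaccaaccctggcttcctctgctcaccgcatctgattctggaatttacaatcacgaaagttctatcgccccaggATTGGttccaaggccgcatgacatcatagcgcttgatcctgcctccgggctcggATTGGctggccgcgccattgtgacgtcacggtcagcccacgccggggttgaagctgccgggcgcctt
Fads2, chr19:10101454-10101753, minus strand: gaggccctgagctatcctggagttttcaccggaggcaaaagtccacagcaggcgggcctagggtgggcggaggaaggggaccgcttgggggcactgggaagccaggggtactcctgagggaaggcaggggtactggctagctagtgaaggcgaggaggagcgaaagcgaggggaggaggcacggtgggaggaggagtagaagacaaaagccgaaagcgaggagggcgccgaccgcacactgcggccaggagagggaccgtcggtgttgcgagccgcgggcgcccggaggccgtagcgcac
The Fasn promoter held 3 NF-Y boxes, the first base of which stood 90, 62 and 59 bases before the start site, the last 2 of them overlapping. Elovl5 had 2, on the minus strand of the promoter, starting 71 and 17 bases before its start site, and Acly had 1, starting at base 38 after it. The GC box was found at 4 of the 9 start sites against 35.7% of all promoters, and the E-box at 1 of 9, that of Elovl5, against 7.15%. None of the 9 held the sterol regulatory element in this spelling, which occurred in 1.24% of all promoters, or the LXR element, which occurred in 0.015%. These are matches of letters in a short window, and no match says only that the letters are not in that window.

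The reads assigned to genes numbered 4010268 to 9691449 per library, and the 10 genes drew between 147 reads (Acaca) and 51395 reads (Scd2) in a library. The authors' deposited RPKM (reads per kb of gene, scaled to library size) count the length of the whole gene, introns included, so they are low for long genes; below, RPKM are used within a gene, and CPM (library-scaled reads, with no length) per kb of exon between genes. All 10 fixed astrocyte markers were detected in each group, with summed levels of 75.8 to 389.3 RPKM, while 5 endothelial and 5 adipocyte markers summed to at most 0.359 and 0.170 RPKM. Of 6 markers of oligodendrocyte precursors, Olig1 and Olig2 summed to between 77.3 and 497.8 RPKM, and Pdgfra, Cspg4, Sox10 and Gpr17 to between 2.09 and 15.2 RPKM. Mitochondrial ribosomal RNA took 12.3 to 29.7% of the reads. In bulk RNA, fewer cells of a type and less RNA per cell cannot be told apart.

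The genes spanned a wide range of levels. Averaged over the 25 libraries, Scd2, the main desaturase of the developing brain, stood highest at 810.5 CPM per kb of exon (348.0 to 1268 in single libraries). Scd1 followed at 159.6 (20.8 to 267.0), Fads1 at 133.9 (56.8 to 179.8) and Fasn at 101.6 (19.4 to 196.3). Fads2 averaged 85.0 (45.6 to 126.4) and Elovl5 averaged 72.9 (30.2 to 98.6). Srebf1 (35.8), Elovl6 (30.9) and Acly (28.4) had close averages with overlapping ranges, and Acaca was lowest at 3.94 (1.71 to 5.40), below every library of the other 9 genes. Together the 10 genes took 4178 ± 148 CPM with the EGFR inhibitor and 10580 ± 1551 with DMSO (SD, n = 3 each). They took 3263 ± 376 after HBEGF withdrawal and 6932 ± 2642 with HBEGF (SD, n = 2 each), and 9890 ± 638 with the P53 inhibitor and 11600 ± 991 with its DMSO. On days 2, 7 and 14 they took 5573 ± 705, 9299 ± 2814 and 9757 ± 653 CPM.

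**Figure D1:**
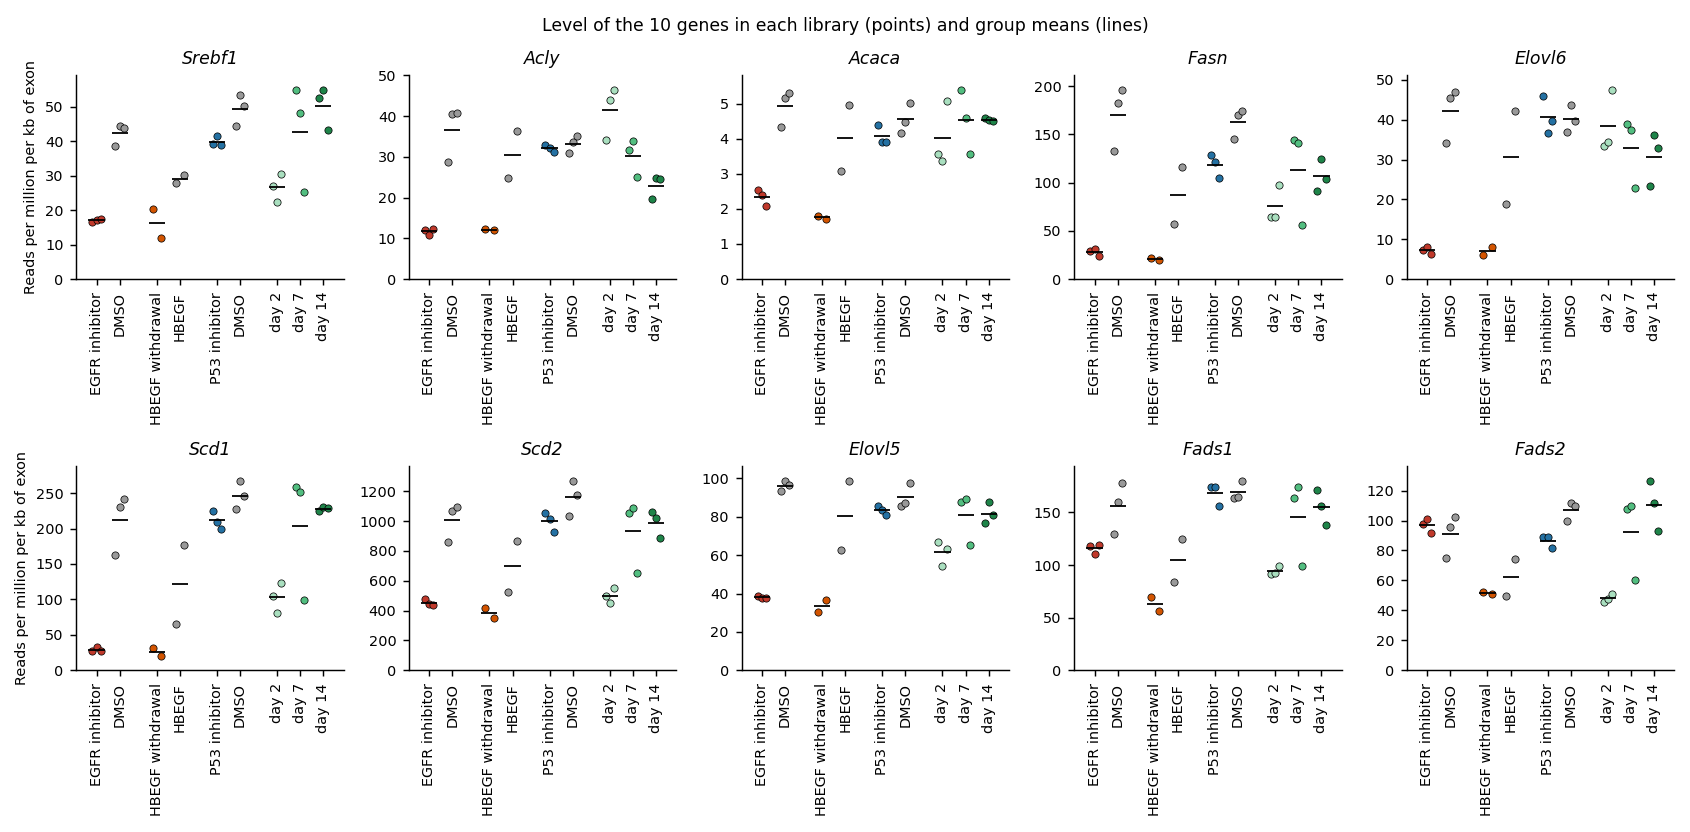
Level of each of the 10 genes in CPM per kb of exon (vertical axes, each from 0) in the 9 groups; points are libraries and lines are group means. In 9 genes, all but Fads2, every EGFR inhibitor library lies below every DMSO library and every HBEGF withdrawal library below every HBEGF library. Of all tested genes, 28.7% show this pattern with the EGFR inhibitor and 37.1% after HBEGF withdrawal.

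The first comparison asked how the genes respond when EGFR signalling is blocked. With the EGFR inhibitor 7 of the 9 tested genes fell and none rose, by limma on log2(RPKM + 1) at an adjusted p below 0.05; over all 13850 tested genes 22.2% were called lower and 16.3% higher. Scd1 was 7.33-fold, Fasn 6.03-fold and Elovl6 5.82-fold lower in mean RPKM. Acly, Elovl5, Srebf1 and Scd2 were 2.22-fold to 3.14-fold lower. The polyunsaturated desaturases Fads1 and Fads2 did not pass. The median log2 change was -1.13 over the 9 genes and -0.02 over all tested genes. Among the 2354 more strongly expressed genes, those averaging 5 RPKM or more, the median was -0.33, or -0.22 after median-of-ratios scaling. Acaca stayed below 1 RPKM in every library with its long introns counted in the length, and was not in this test, and Elovl6 was below 1 RPKM in the EGFR inhibitor and HBEGF withdrawal libraries but not in the others, which is why it could be tested.

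Srebf1, the regulator, stood at 3.97, 4.14 and 4.15 RPKM in the inhibitor libraries and at 9.28, 10.6 and 10.5 RPKM in the DMSO libraries. Its log2 change was -1.13 ± 0.19 (SE, limma adjusted p = 0.0001631), and the groups were far apart compared with their spread. Acly stood at 1.23, 1.11 and 1.25 RPKM with the inhibitor, against 2.94, 4.14 and 4.18 RPKM with DMSO (log2 change -1.10 ± 0.12, limma adjusted p = 2.273e-06). The DMSO library with 2.94 RPKM, replicate 1, was the lowest of its group for all 10 genes, at a median of 0.762 of the mean of the other 2, yet above all inhibitor libraries for all but Fads2. Acaca stood at 43.4, 41.0 and 35.4 CPM with the inhibitor, against 73.8, 87.9 and 90.3 with DMSO. It was tested in 3 settings: without the filter on low values (limma adjusted p = 0.003807), and on log2(CPM + 1) and by voom with a filter chosen after seeing the data. On log2(CPM + 1) its log2 change was -1.05 ± 0.16 (limma adjusted p = 2.256e-06), and 20.7% of 19805 genes were called lower; by voom its log2 change was -1.075 ± 0.17 (adjusted p = 3.628e-06).

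Fasn, the synthase, stood at 17.1, 18.3 and 14.2 RPKM in the inhibitor libraries, against 77.55, 107.0 and 114.9 RPKM in the DMSO libraries. All inhibitor libraries lay far below the lowest DMSO library, and the log2 change was -2.51 ± 0.30 (limma adjusted p = 4.872e-06). Elovl6 stood at 0.443, 0.494 and 0.379 RPKM with the inhibitor, against 2.07, 2.75 and 2.85 RPKM with DMSO (log2 change -1.30 ± 0.17, limma adjusted p = 1.003e-05). This log2 change is on values with 1 added, which understates the fold of a gene this low. Scd1, the desaturase best known from liver, stood at 9.69, 11.8 and 10.0 RPKM with the inhibitor and 59.0, 84.1 and 88.0 RPKM with DMSO (log2 change -2.74 ± 0.33, limma adjusted p = 4.588e-06). Scd2 stood at 197.8, 183.3 and 181.3 RPKM with the inhibitor, against 356.5, 441.2 and 453.3 RPKM with DMSO (log2 change -1.14 ± 0.18, limma adjusted p = 9.028e-05). Both desaturases fell with no overlap between the groups, and per kb of exon Scd2 was the highest of the 10 genes in every library.

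Of the polyunsaturated branch, Elovl5 stood at 2.04, 1.98 and 1.99 RPKM with the inhibitor, against 4.90, 5.16 and 5.07 RPKM with DMSO (log2 change -1.01 ± 0.11, limma adjusted p = 2.157e-06). Fads1 stood at 40.5, 38.2 and 40.8 RPKM with the inhibitor, against 44.5, 55.0 and 61.1 RPKM with DMSO. The groups did not overlap, but its log2 change of -0.41 ± 0.18 missed the threshold (limma adjusted p = 0.07708). Fads1 passed without DMSO replicate 1 and in 4 other settings (adjusted p down to 0.008957). In the rest it did not pass, with adjusted p up to 0.252. Under median-of-ratios scaling its log2 change was -0.29 ± 0.19 (limma adjusted p = 0.2339). Fads2 stood at 8.24, 8.56 and 7.75 RPKM with the inhibitor, against 6.34, 8.06 and 8.66 RPKM with DMSO, and the groups overlapped (log2 change 0.09 ± 0.17, 95% interval -0.26 to 0.44, limma adjusted p = 0.7144). In all, 9 of the 10 genes were lower with no overlap between the groups, a pattern that 28.7% of the tested genes showed. Beside these falls, the summed astrocyte markers were 369.2 to 389.3 RPKM with the inhibitor and 115.5 to 146.3 RPKM with DMSO, and Olig1 and Olig2 summed to 100.6 to 123.2 RPKM with the inhibitor and 317.2 to 412.6 RPKM with DMSO. The other 4 precursor markers summed to 12.8 to 13.8 RPKM with the inhibitor and 5.19 to 6.25 RPKM with DMSO. Summed markers of neurons were 6.18 to 7.52 RPKM with the inhibitor and 2.97 to 3.15 RPKM with DMSO, those of microglia 0.5085 to 1.02 RPKM with the inhibitor and 0.0212 to 0.1445 RPKM with DMSO, and those of pericytes 1.21 to 1.45 RPKM with the inhibitor and 0.1275 to 0.261 RPKM with DMSO. The mitochondrial ribosomal share was 23.3 ± 1.77% with the inhibitor and 18.7 ± 0.236% with DMSO (SD, n = 3 each). With the mitochondrial genes left out of the scaling, 7 of the 9 genes were called lower. The part of cell makeup in the result was not tested.

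The second comparison asked the same of the growth factor. After HBEGF withdrawal 8 of the 9 tested genes fell and none rose, with 22.5% of all tested genes called lower and 10.0% higher. Scd1 was 4.68-fold, Elovl6 4.36-fold and Fasn 4.21-fold lower in mean RPKM, again ahead of the rest. Acly (2.52-fold), Elovl5 (2.41-fold), Scd2 (1.82-fold), Srebf1 (1.80-fold) and Fads1 (1.66-fold) fell less, and Fads2 did not pass. The median log2 change was -0.87 over the 9 genes and -0.10 over all tested genes. These calls use a spread estimated over all 25 libraries. With the HBEGF experiment fitted alone, none of the 9 genes, and none of all tested genes, passed by limma (limma adjusted p of the 5 firmest genes 0.1072 to 0.1783).

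Fasn stood at 12.8 and 11.3 RPKM after withdrawal, against 33.2 and 68.2 RPKM with HBEGF (log2 change -1.90 ± 0.37, limma adjusted p = 0.0006543). Scd1 stood at 11.3 and 7.57 RPKM after withdrawal, against 23.8 and 64.6 RPKM with HBEGF (log2 change -1.97 ± 0.40, limma adjusted p = 0.0009821). Elovl6 stood at 0.362 and 0.489 RPKM after withdrawal, against 1.15 and 2.56 RPKM with HBEGF (log2 change -0.96 ± 0.20, limma adjusted p = 0.001495). For each of the 3 the higher withdrawal library lay below the lower HBEGF library, and HBEGF replicate 2 was more than 2 times replicate 1. HBEGF replicate 1 was the lower of its pair for all 10 genes, at a median of 0.628 of replicate 2, so the size of each fall depends on which HBEGF library is taken. Without HBEGF replicate 1, 7 of the 9 genes were called lower, Srebf1 being lost, and without HBEGF replicate 2 or withdrawal replicate 2 the count was 5.

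Acly stood at 1.25 and 1.22 RPKM after withdrawal, against 2.53 and 3.71 RPKM with HBEGF (log2 change -0.87 ± 0.15, limma adjusted p = 0.0002687). Elovl5 stood at 1.58 and 1.93 RPKM after withdrawal, against 3.28 and 5.17 RPKM with HBEGF (log2 change -0.90 ± 0.14, limma adjusted p = 7.812e-05). These 2, with Fasn, Scd1 and Elovl6, were the 5 genes that also passed with median-of-ratios scaling and with the mitochondrial genes left out of the scaling; under median-of-ratios scaling 14.4% of all tested genes were called lower. Scd2 stood at 172.5 and 144.1 RPKM after withdrawal, against 217.8 and 359.8 RPKM with HBEGF (log2 change -0.82 ± 0.23, limma adjusted p = 0.008928). Srebf1 stood at 4.91 and 2.83 RPKM after withdrawal, against 6.69 and 7.22 RPKM with HBEGF (log2 change -0.74 ± 0.24, limma adjusted p = 0.02299). Fads1 stood at 23.9 and 19.5 RPKM after withdrawal, against 28.9 and 43.0 RPKM with HBEGF (log2 change -0.68 ± 0.21, limma adjusted p = 0.02025). Scd2, Srebf1 and Fads1 lost their calls under both rescalings, with limma adjusted p of 0.08617, 0.1242 and 0.169 under median-of-ratios scaling, and these 3 were also the calls lost without either replicate 2.

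Fads2 stood at 4.43 and 4.32 RPKM after withdrawal, against 4.21 and 6.29 RPKM with HBEGF, and the groups overlapped (log2 change -0.20 ± 0.20, 95% interval -0.62 to 0.23, limma adjusted p = 0.5137). Acaca stood at 30.9 and 29.2 CPM after withdrawal, against 52.6 and 84.6 with HBEGF. Its log2 change was -1.12 ± 0.19 on log2(CPM + 1), with the filter chosen after seeing the data (limma adjusted p = 2.502e-05). In that test 20.1% of the genes were called lower. Without the filter on low values, on log2(RPKM + 1), its log2 change was -0.17 ± 0.05 (limma adjusted p = 0.03304). As with the inhibitor, 9 of the 10 genes were lower without overlap, against 37.1% of the tested genes. The mitochondrial ribosomal share was 28.8 ± 1.29% after withdrawal and 17.7 ± 0.746% with HBEGF, and the median log2 change of 2354 genes with at least 5 RPKM was -0.45, or -0.22 after median-of-ratios scaling. Astrocyte markers summed to 279.3 to 303.0 RPKM after withdrawal and 121.6 to 127.7 RPKM with HBEGF, and Olig1 and Olig2 to 77.3 to 88.1 RPKM after withdrawal and 379.9 to 403.0 RPKM with HBEGF. The other 4 precursor markers summed to 10.5 to 15.2 RPKM after withdrawal and 11.05 to 14.9 RPKM with HBEGF, with overlap. Markers of microglia summed to 1.35 to 1.97 RPKM after withdrawal and 0.0433 to 0.0713 RPKM with HBEGF, those of pericytes to 1.425 to 1.74 RPKM after withdrawal and 0.197 to 0.283 RPKM with HBEGF, and those of neurons to 4.625 to 5.22 RPKM after withdrawal and 3.52 to 4.77 RPKM with HBEGF. Summed markers of oligodendrocytes were 27.4 to 29.7 RPKM after withdrawal and 8.65 to 17.65 RPKM with HBEGF. The part of these in the result was not tested.

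The difference between the inhibitor change and the withdrawal change was tested directly, and none of the 9 genes passed, with none at an unadjusted p below 0.05 either; 1.83% of all tested genes did pass. No setting tried, voom included, gave a call. For Scd1 the inhibitor change minus the withdrawal change was -0.77 ± 0.52 in log2 (95% interval -1.86 to 0.31), and for Fads1 it was 0.28 ± 0.28 (-0.31 to 0.86). These intervals include 0 and also sizeable differences, so they do not show that the responses were alike.

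With the P53 inhibitor none of the 9 genes passed, with none at an unadjusted p below 0.05 and none called under any other setting, voom included; 0.181% of all tested genes were called. Fasn stood at 75.2, 71.0 and 61.6 RPKM with the inhibitor, against 85.2, 99.3 and 102.0 RPKM with its DMSO, and the groups did not overlap (log2 change -0.46 ± 0.30, 95% interval -1.09 to 0.17, limma adjusted p = 0.7709). Srebf1 stood at 9.37, 9.98 and 9.34 RPKM with the inhibitor, against 10.65, 12.8 and 12.1 RPKM with its DMSO (log2 change -0.28 ± 0.19, limma adjusted p = 0.7912). Fads2 stood at 7.51, 7.50 and 6.91 RPKM with the inhibitor, against 8.44, 9.45 and 9.29 RPKM with its DMSO (log2 change -0.28 ± 0.17, limma adjusted p = 0.7373). Fasn, Srebf1, Fads2, Scd1 and Elovl5 were each lower in all P53 inhibitor libraries than in all DMSO libraries, a pattern of 11.3% of tested genes; for Elovl5 the gap was narrow, 4.487 with the inhibitor against 4.49 RPKM with DMSO at the nearest. Acly and Elovl6 had nearly equal means, 3.28 ± 0.0974 and 2.47 ± 0.287 RPKM with the inhibitor against 3.40 ± 0.217 and 2.43 ± 0.209 RPKM with DMSO (SD, n = 3 each). The EGFR inhibitor change minus the P53 inhibitor change was called lower (limma adjusted p below 0.05) for 7 of the 9 genes, the same 7 that fell with the EGFR inhibitor, against 16.6% of all tested genes. It was -2.53 ± 0.46 for Scd1 (limma adjusted p = 0.0005348) and -2.05 ± 0.43 for Fasn (limma adjusted p = 0.001447). Srebf1 had the smallest of these, -0.85 ± 0.27 (limma adjusted p = 0.02531), and lost its call with a replicate block (limma adjusted p = 0.05067) and without EGFR DMSO replicate 2, P53 DMSO replicate 1 or P53 inhibitor replicate 2.

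**Figure D2:**
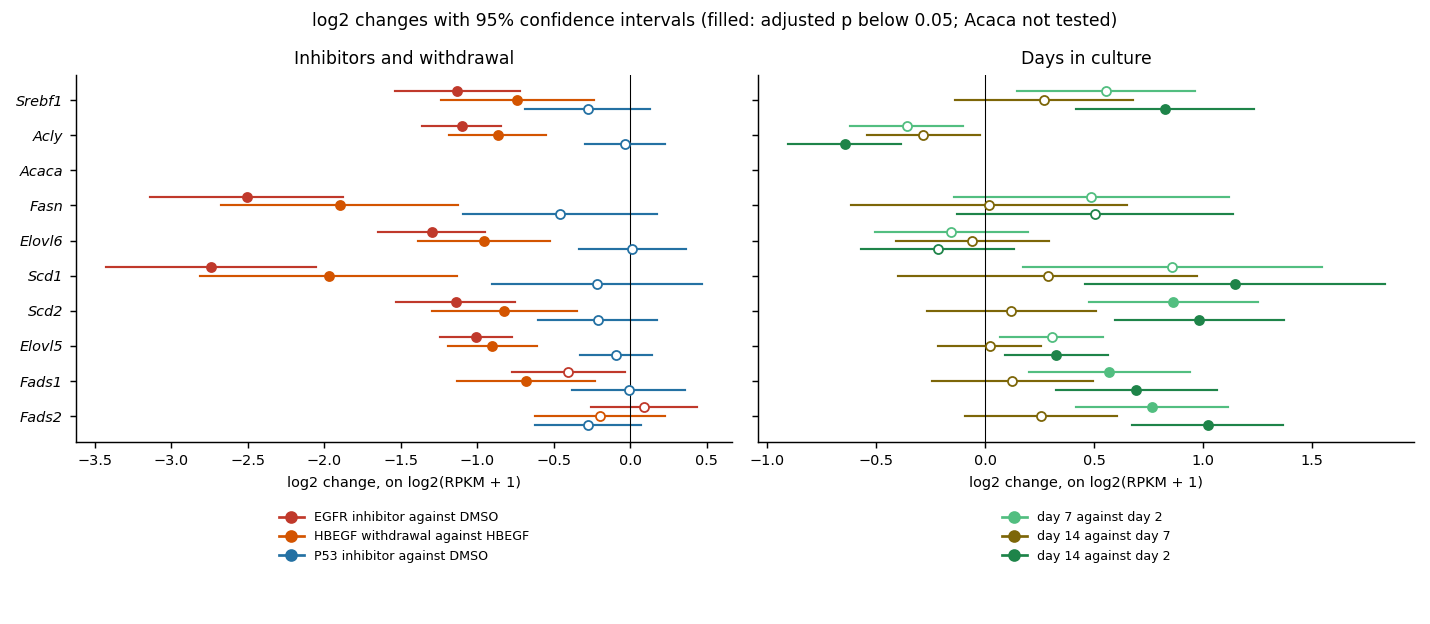
log2 change on log2(RPKM + 1) with its 95% confidence interval for the 9 tested genes; left, both inhibitors and HBEGF withdrawal, right, the days of culture; filled points passed at a limma adjusted p below 0.05. Left, Scd1 and Fasn lie farthest below 0 with the EGFR inhibitor (-2.74 and -2.51); right, Acly alone is called lower, while desaturases and Srebf1 are called higher.

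Over days in culture the 4 desaturases rose and the citrate lyase fell. On day 14 compared with day 2, 6 of the 9 tested genes were higher (Fads2, Scd1, Scd2, Srebf1, Fads1 and Elovl5) and 1 lower (Acly), against 5.55% of all tested genes called higher and 17.6% lower. With the experiment of days fitted alone 2 of the 6, Scd2 and Fads2, were still called higher, and with a replicate block 4, Scd1 and Elovl5 being lost (limma adjusted p = 0.05352 and 0.05569). Fasn and Elovl6, which build the chain before it is desaturated, did not pass. On day 7 compared with day 2, Scd2, Fads2 and Fads1 were called higher and none lower, against 4.12% and 9.59% of all tested genes. Fads1, whose groups overlapped, lost this call in 8 settings, the replicate block, no filter and leaving out any of 5 libraries of days 2 and 7 among them (limma adjusted p of 0.0603 to 0.1919), and with the experiment fitted alone none of the 3 was called. Scd2 and Fads2 were higher there without overlap and Acly lower, patterns of 9.6% and 17.9% of tested genes. On day 14 compared with day 7 none of the 9 genes passed, nor did any in the other settings, while 0.137% of all genes did; at an unadjusted p below 0.05 there was 1, Acly, also the 1 gene without overlap (9.96% of tested genes were lower in that way). Between day 14 and day 2 the 6 higher genes and Acly did not overlap, patterns of 8.32% and 24.7% of tested genes. The median log2 change over the 9 genes was 0.55 between day 7 and day 2, 0.12 between day 14 and day 7 and 0.69 between day 14 and day 2, where over all tested genes it was -0.05, -0.06 and -0.11.

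Among the desaturases, Scd2 stood at 207.1, 186.2 and 227.5 RPKM on day 2, at 436.1, 449.5 and 270.7 on day 7 and at 440.3, 421.5 and 366.9 on day 14. Its day 2 libraries lay below all later ones (day 14 against day 2, log2 change 0.98 ± 0.18, limma adjusted p = 0.0008694). Scd1 stood at 38.3, 29.25 and 45.1 RPKM on day 2, at 94.4, 91.7 and 35.9 on day 7 and at 81.6, 83.9 and 83.4 on day 14, when its libraries had an SD of 1.43% of their mean. The day 14 change was 1.14 ± 0.33 (limma adjusted p = 0.01628). Fads2, which passed in neither EGFR comparison, stood at 3.86, 4.05 and 4.28 RPKM on day 2, at 9.09, 9.28 and 5.12 on day 7 and at 10.7, 9.46 and 7.84 on day 14. It had the largest mean ratio of the 10 genes, 2.30-fold between day 14 and day 2 (log2 change 1.02 ± 0.17, limma adjusted p = 0.0002799). Fads1 stood at 31.6, 31.7 and 34.2 RPKM on day 2, at 56.4, 59.9 and 34.0 on day 7 and at 58.75, 53.8 and 47.3 on day 14 (day 14 against day 2, log2 change 0.69 ± 0.18, limma adjusted p = 0.007742).

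Srebf1 stood at 6.48, 5.39 and 7.30 RPKM on day 2, at 13.1, 11.6 and 6.07 on day 7 and at 12.6, 13.2 and 10.4 on day 14, the last without overlap with day 2 (log2 change 0.82 ± 0.19, limma adjusted p = 0.004865). Acly stood at 3.50, 4.49 and 4.75 RPKM on day 2, at 3.23, 3.45 and 2.56 on day 7 and at 2.00, 2.54 and 2.50 on day 14. Each later day lay below the one before it with no overlap, though by narrow gaps, and day 14 was 1.81-fold below day 2 (log2 change -0.65 ± 0.12, limma adjusted p = 0.001032). Elovl5 stood at 3.496, 2.86 and 3.31 RPKM on day 2, at 4.585, 4.69 and 3.43 on day 7 and at 4.01, 4.60 and 4.23 on day 14, a small change from day 2 (0.32 ± 0.11, limma adjusted p = 0.04453) that lost its call in 20 settings, leaving out any 1 of 16 libraries among them. Fasn stood at 37.6, 37.5 and 57.3 RPKM on day 2, at 84.3, 82.3 and 32.6 on day 7 and at 53.2, 72.7 and 60.9 on day 14, with overlap (log2 change 0.50 ± 0.30, 95% interval -0.13 to 1.14, limma adjusted p = 0.2629). Elovl6 averaged 2.33 ± 0.479, 2.00 ± 0.538 and 1.86 ± 0.404 RPKM on days 2, 7 and 14 (day 14 against day 2, log2 change -0.22 ± 0.17, limma adjusted p = 0.4032). Acaca averaged 68.4 ± 15.9, 77.1 ± 15.6 and 77.55 ± 0.716 CPM (SD, n = 3), and its day 14 change on log2(CPM + 1) did not pass (limma adjusted p = 0.3916).

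On day 7 the values depended on 1 library. Day 7 replicate 3 was the lowest of its group for all 10 genes, at a median of 0.591 of the mean of the other 2 and down to 0.386 for Scd1. Without it, 7 of the 9 genes rather than 3 were called higher between day 7 and day 2, Fasn, Scd1, Elovl5 and Srebf1 being added, and between day 14 and day 7 none was called either way. Between day 14 and day 2, which does not use its values directly, the call of Scd1 was lost in 3 settings, without day 2 replicate 2 among them (limma adjusted p of 0.05352 to 0.08462). The mitochondrial ribosomal share was 14.5 ± 1.99%, 19.2 ± 0.258% and 21.8 ± 1.92% on days 2, 7 and 14, and astrocyte markers summed to 75.8 to 104.9, 122.4 to 168.1 and 128.4 to 222.6 RPKM. Under median-of-ratios scaling the same 6 genes were higher and Acly lower between day 14 and day 2. In that scaling 8.63% of all genes were called higher and 8.38% lower. The part of the ribosomal share and of cell makeup in the result was not tested. The step between days 2 and 7 and the step between days 7 and 14 were also compared, and none of the 9 genes passed (0.549% of all genes did); Scd2 alone had an unadjusted p below 0.05, with a difference of -0.74 ± 0.32 (limma adjusted p = 0.3591).

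Ratios within a library, taken per kb of exon, do not depend on depth or scaling. Scd1 over Scd2 was 0.0640 ± 0.00882 with the EGFR inhibitor and 0.2085 ± 0.0177 with DMSO, and 0.0672 ± 0.0106 after HBEGF withdrawal and 0.164 ± 0.0566 with HBEGF. In both the groups did not overlap, and Scd1 was low relative to Scd2. With the P53 inhibitor the ratio was 0.212 ± 0.00464, against 0.213 ± 0.00601 with its DMSO, and on days 2, 7 and 14 it was 0.205 ± 0.0239, 0.210 ± 0.0513 and 0.232 ± 0.0243, all overlapping.

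Fads2 over Fads1 was 0.838 ± 0.0702 with the EGFR inhibitor and 0.584 ± 0.0109 with DMSO, 0.828 ± 0.102 after HBEGF withdrawal and 0.593 ± 0.00186 with HBEGF, and 0.514 ± 0.00709 with the P53 inhibitor and 0.634 ± 0.0392 with its DMSO. It was 0.509 ± 0.0117, 0.633 ± 0.0219 and 0.710 ± 0.0334 on days 2, 7 and 14. The groups of each of these comparisons did not overlap, so this ratio was higher with both EGFR manipulations and with each later day, and lower with the P53 inhibitor. Elovl6 over Elovl5 was 0.190 ± 0.0255 with the EGFR inhibitor and 0.437 ± 0.0640 with DMSO. It was 0.209 ± 0.0154 after HBEGF withdrawal and 0.366 ± 0.088 with HBEGF. On days 2, 7 and 14 it was 0.628 ± 0.126, 0.404 ± 0.0496 and 0.375 ± 0.0610. Only days 7 and 14 overlapped among these comparisons, and the P53 inhibitor and its DMSO overlapped as well. Fasn over Acly was 2.43 ± 0.442 with the EGFR inhibitor and 4.64 ± 0.150 with DMSO, and 4.64 ± 0.379 on day 14 and 1.81 ± 0.327 on day 2. Fasn over Srebf1 was 1.66 ± 0.225 with the EGFR inhibitor and 4.01 ± 0.534 with DMSO, again with no overlap. After HBEGF withdrawal it was 1.35 ± 0.406, against 2.95 ± 1.30 with HBEGF, also with no overlap. Its groups overlapped with the P53 inhibitor and between the days. The tests numbered 30, 5 ratios in 6 comparisons, by two-sided exact permutation tests. With 3 libraries against 3 the smallest p is 0.1 and with 2 against 2 it is 0.3333, so none could pass; the smallest value adjusted over the family was 0.2143.

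**Figure D3:**
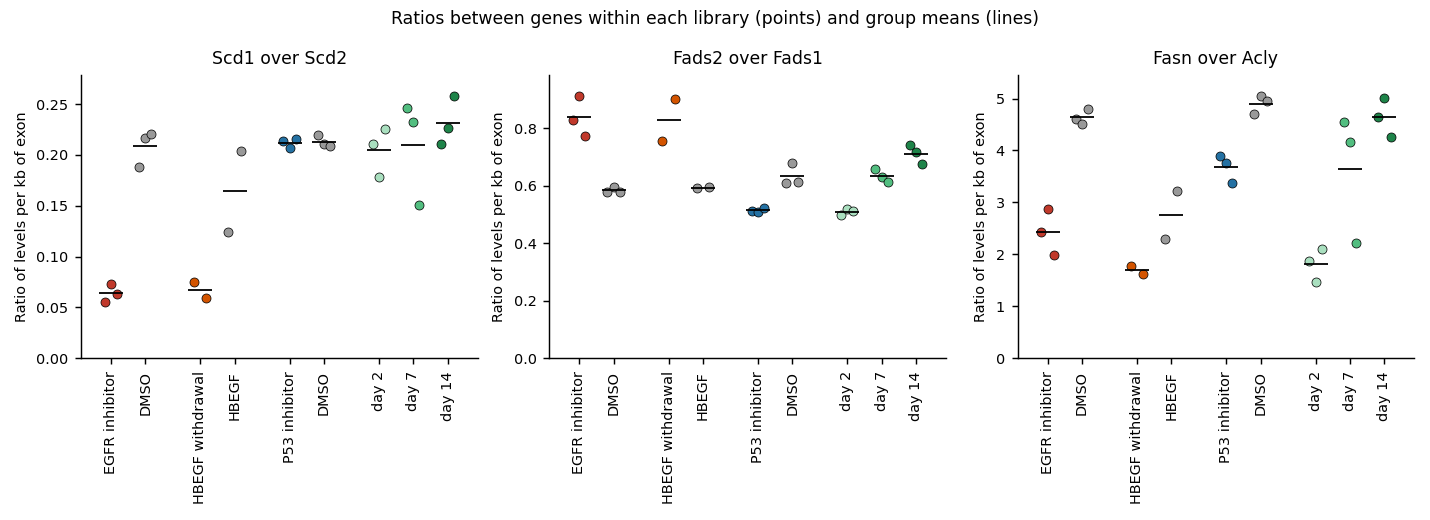
Ratios of levels per kb of exon within each library (points) with group means (lines), for Scd1 over Scd2, Fads2 over Fads1 and Fasn over Acly; vertical axes start at 0. Scd1 over Scd2 averages 0.0640 with the EGFR inhibitor and 0.0672 after HBEGF withdrawal, and Fads2 over Fads1 is lowest on day 2 and with the P53 inhibitor.

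The other genes of the pathway were counted by lists, in the fit over all 25 libraries only. These counts were not repeated under another scaling or with an experiment fitted alone. Of the list for the supply of acetyl-CoA, malonyl-CoA and NADPH, 7 of 9 genes were tested, and 6 fell with the EGFR inhibitor and 3 after HBEGF withdrawal. For this list and those that follow, the shares of all tested genes called are 22.2% lower and 16.3% higher with the EGFR inhibitor, 22.5% lower and 10.0% higher after HBEGF withdrawal, and 17.6% lower and 5.55% higher between day 14 and day 2. The mitochondrial citrate carrier gene Slc25a1 averaged 8.04 ± 0.200 RPKM with the inhibitor and 14.8 ± 2.62 with DMSO (limma adjusted p = 4.616e-05). G6pdx, the first enzyme of the pentose phosphate pathway, averaged 4.09 ± 0.114 RPKM with the inhibitor and 7.33 ± 0.592 with DMSO (limma adjusted p = 0.0001054). On day 14 against day 2, 3 of the list fell and 1 rose: G6pdx, Slc25a1 and Pgd, another pentose phosphate enzyme gene, fell together with Acly, while Mid1ip1, whose protein activates acetyl-CoA carboxylase, rose to 41.7 ± 7.28 RPKM on day 14, against 16.1 ± 0.779 on day 2 (limma adjusted p = 3.16e-05). No gene of this list passed with the P53 inhibitor or between day 14 and day 7.

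Of the other elongation cycle genes, 5 of 11 were tested; 4 fell and 1 rose with the EGFR inhibitor. Tecr, the reductase that ends each cycle, averaged 4.67 ± 0.236 RPKM with the inhibitor and 10.1 ± 1.07 with DMSO (limma adjusted p = 1.423e-05), and Elovl1, an elongase of very long chains, averaged 2.07 ± 0.130 RPKM with the inhibitor and 4.02 ± 0.456 with DMSO (limma adjusted p = 0.0004979). After HBEGF withdrawal 2 fell, Elovl2 and Elovl4, and between day 14 and day 2 Elovl1 fell and Hacd3 rose. Of a list of other desaturase, cytochrome b5 and cytochrome b5 reductase genes, 4 of 8 were tested. Cyb5b, a cytochrome b5, fell and Fads3 rose with the EGFR inhibitor, Cyb5b fell after HBEGF withdrawal, and none passed between the days.

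Genes that regulate the pathway were called in both directions. Of 12 regulators 8 were tested, and 2 fell and 2 rose with the EGFR inhibitor, near the shares of all tested genes given above. After withdrawal of HBEGF 2 fell and 1 rose, also near those shares. The median log2 change of the list was -0.07 with the inhibitor and -0.10 after withdrawal, against -0.02 and -0.10 over all tested genes. Insig1, which retains SREBP in the endoplasmic reticulum and is itself an SREBP target, averaged 4.28 ± 0.0210 RPKM with the inhibitor and 38.4 ± 9.72 with DMSO (log2 change -2.87 ± 0.32, limma adjusted p = 2.067e-06), and Srebf2 also fell (1.87 ± 0.193 RPKM with the inhibitor and 4.25 ± 0.0631 with DMSO, limma adjusted p = 1.482e-07). Abca1, a cholesterol exporter and LXR target, rose to 9.13 ± 0.443 RPKM with the inhibitor, against 3.74 ± 0.372 with DMSO (limma adjusted p = 1.465e-05), where Srebf1 fell. Insig1 and Srebf2 fell after HBEGF withdrawal too, and Nr1h2, which encodes an LXR, rose. Over the days Abca1 rose to 7.30 ± 2.26 RPKM on day 14, against 1.51 ± 0.446 on day 2 (limma adjusted p = 4.187e-07), and Srebf1 rose as well, while Srebf2 and Mbtps1, a protease that cuts SREBP, fell. Of 23 cholesterol synthesis and uptake genes 22 were tested, and 22 fell with the EGFR inhibitor and 17 after HBEGF withdrawal, with median log2 changes of -1.57 and -1.02. For day 14 against day 2, 16 of these fell and none rose, with a median log2 change of -0.65, while 6 of the 9 tested fatty acid genes were higher and Acly lower.

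**Figure D4:**
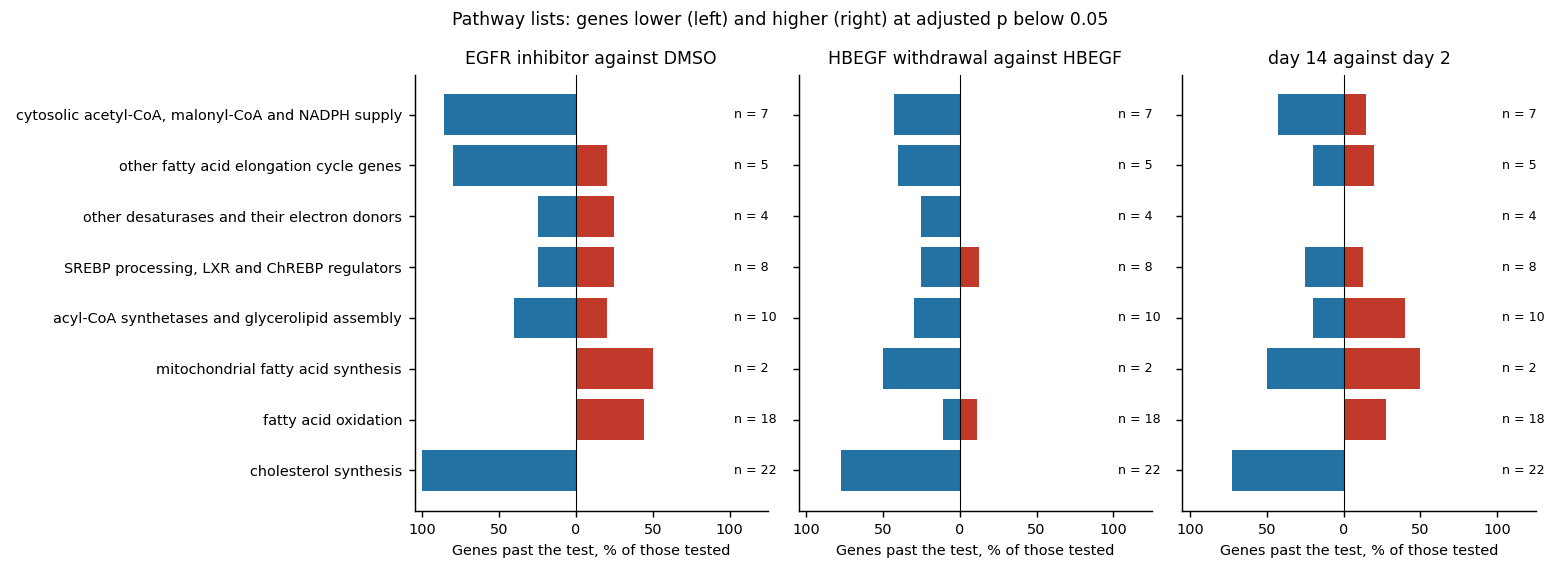
Share of the tested genes of each pathway list that were called lower (left, blue) or higher (right, red) at a limma adjusted p below 0.05, in 3 comparisons; n is the number of genes tested. All 22 cholesterol genes are lower with the EGFR inhibitor, and 8 of the 18 tested fatty acid oxidation genes are called higher there and 5 on day 14.

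The order of the groups was much alike for most of the genes. The HBEGF withdrawal and EGFR inhibitor groups took the lowest 2 places for all but Fads1 and Fads2, and day 2 the third lowest for Fasn, Acaca, Scd1, Scd2, Elovl5 and Srebf1. Acly was highest on day 2, 4.25 ± 0.660 RPKM, where Fads2 was lowest, 4.06 ± 0.212 RPKM. Most neighbours in these orders overlapped in their libraries, such as the 4 highest groups of Scd2. Over the 25 libraries, on log2(CPM + 1), the median Pearson correlation of a gene with the other 9 was 0.80 to 0.94 for 9 genes and 0.48 for Fads2, which had its lowest value, -0.01, with Acly. These points share libraries, groups and scaling, so the values are descriptions. The 5 genes most like the mean profile of the 10, out of 2348 others with a mean of at least 5 RPKM, on log2(RPKM + 1), were Egfr (r = 0.950), Tlcd1 (0.942), Ccser2 (0.937), Garem2 (0.936) and Gm5182 (0.928). Egfr, which encodes the receptor itself, ranged between 2.01 and 8.82 RPKM.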

How the data were processed

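The authors deposited RPKM per gene for 54429 entries. Per the submitters' processing notes reads were aligned to GRCm38 with STAR and counted with HTSeq, and edgeR and limma were used; versions, annotation and strand setting are not stated there. Per the labels' protocols, total RNA was amplified with the Ovation V2 kit and prepared with a NEBNext kit. Multiplied by GENCODE M21 gene spans, the deposited RPKM summed to 999128 to 1002611 per library (377054 to 519436 with exon lengths), so the span was taken as their length; 98.7% of entries matched a symbol. Reads recovered this way were whole, within 0.1, for 99.0 to 99.3% of values of up to 20 reads.

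Entries with at least 1 RPKM in at least 2 libraries were tested (13850, 9 of the 10 genes): limma 3.58.1 in R 4.3.3, on log2(RPKM + 1), with a mean for each of 9 groups over 25 libraries (16 residual degrees of freedom), trend and robust empirical Bayes, and Benjamini-Hochberg adjustment within each comparison. A fold is a ratio of mean RPKM. The 10 genes and the lists were chosen with earlier results of these data known. Named beside the 10 are called genes of lowest adjusted p in each list, up to 5 a comparison, and the 5 genes of most similar profile; not all are printed. Marker lists covered astrocytes, oligodendrocyte precursors, oligodendrocytes, microglia, neurons, endothelial cells, pericytes and adipocytes.

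The alternatives were median-of-ratios scaling, a pseudocount of 0.1, a filter of 5 RPKM or none, scaling without mitochondrial genes, log2(CPM + 1), voom on recovered reads, each experiment alone, a replicate block, array weights and leaving out each library. Both CPM-scale tests with a filter of 1 CPM were added after seeing the data. Same-numbered libraries did not deviate together (r = -0.10 to 0.12), so numbers were not used as pairs. On simulated data 200 genes were changed, drawn from those with a mean log2(RPKM + 1) above 2, and the changes were added on that scale. Changes of 4-fold were recovered for 96% (EGFR inhibitor) and 91% (HBEGF withdrawal) of them and 2-fold changes for 74% and 67%. For the EGFR minus HBEGF difference these were 79% and 44%. The rates do not cover lower genes, such as Elovl6. Python 3.11.15, pandas 2.3.3, numpy 2.4.6, scipy 1.17.1 and matplotlib 3.10.9 were used.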

Additional observations from a re-analysis of the deposited data

How the results depend on the processing

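No called change of the 9 genes reversed in any setting. With the EGFR inhibitor 7 genes were lower, against 8 in 8 settings (Fads1 added in 5 of them and Acaca in the 3 that test it), 5 with a filter of 5 RPKM, which removes Acly and Elovl6, and 7 to 8 leaving out 1 library. After HBEGF withdrawal 8 genes were lower, against 5 under median-of-ratios scaling, 5 without mitochondrial genes, 0 with that experiment alone and 5 to 8 leaving out 1 library. Acaca was also called lower after withdrawal in the 3 settings that test it, and the filter of 5 RPKM removes Acly and Elovl6 here too. Between day 7 and day 2, 3 genes were higher, against 5 without mitochondrial genes, 5 with log2(CPM + 1), 5 with voom, 5 with voom and a filter of 1 CPM, 7 with array weights, 0 with that experiment alone and 2 to 7 leaving out 1 library. The lowest of these left Scd2 and Fads2, and 5 were called without HBEGF replicate 1 or 2. None was lower there, against 1 (Acly) with log2(CPM + 1), 1 with log2(CPM + 1) and a filter of 1 CPM, 1 with voom and that filter, and 0 to 1 leaving out 1 library (1 without EGFR DMSO replicate 1, HBEGF replicate 1 or 2, or day 2 replicate 1). Between day 14 and day 2, 1 was lower, against 0 with a filter of 5 RPKM, which removes Acly, and 6 were higher, against 2 with that experiment alone and 4 to 6 leaving out 1 library. For the EGFR minus P53 difference, 6 to 7 genes were lower leaving out 1 library. The cause was not tested.

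With a replicate block, 7 genes were lower with the EGFR inhibitor, 8 after withdrawal and 6 for the EGFR minus P53 difference (Srebf1 lost), and 4 were higher and 1 lower between day 14 and day 2 and 2 higher between day 7 and day 2; no other call changed. The deviations of same-numbered libraries, given above, do not show that the numbers pair them.

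Calls over all genes moved more: 2069 to 8584 with the EGFR inhibitor (5337 in the fit reported), 0 to 7124 after withdrawal (4511), 2 to 334 with the P53 inhibitor (25), 190 to 3151 between days 7 and 2 (1899), 0 to 148 between days 14 and 7 (19), 1267 to 5031 between days 14 and 2 (3208), 63 to 765 for the EGFR minus HBEGF difference (253), 1638 to 6603 for the EGFR minus P53 difference (4129) and 0 to 335 for the difference of steps (76). Median-of-ratios scaling moved their balance of higher to lower calls to 2752 and 2635 with the EGFR inhibitor (2261 and 3076), 2146 and 1988 after withdrawal (1390 and 3121), 665 and 763 between days 7 and 2 (571 and 1328) and 1195 and 1160 between days 14 and 2 (769 and 2439). Depth limits Acaca most, with 147 to 798 reads a library.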

Other observations

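Of 22 fatty acid oxidation genes 18 were tested, and 8 rose and none fell with the EGFR inhibitor (16.3% of all tested genes were called higher). Cpt1a, which admits acyl chains into mitochondria and is inhibited by malonyl-CoA, averaged 4.003 ± 0.296 RPKM with the inhibitor and 1.69 ± 0.0375 with DMSO (limma adjusted p = 5.812e-05), and the thiolase gene Acaa2 averaged 3.61 ± 0.418 RPKM with the inhibitor and 1.19 ± 0.0833 with DMSO (limma adjusted p = 1.811e-05). After HBEGF withdrawal 2 rose (Cpt1c, Acaa1a) and 2 fell (Acadl, Slc25a20), where 10.0% of all tested genes were called higher and 22.5% lower, so these counts are near that background or below it. By day 14, compared with day 2, 5 rose and none fell, among them Hadha (6.76 ± 0.658 RPKM on day 14, 4.05 ± 0.351 on day 2, limma adjusted p = 9.784e-06), when Scd1, Scd2 and Fads2 also rose. With the P53 inhibitor Acadl was the 1 gene of the list that passed, 4.37 ± 0.288 RPKM with the inhibitor against 2.45 ± 0.216 RPKM with DMSO (limma adjusted p = 0.009256).

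Of 18 genes for acyl-CoA synthetases and glycerolipid assembly 10 were tested, and 2 rose and 4 fell with the EGFR inhibitor. Gpam, which starts glycerolipid synthesis in mitochondria and is known as an SREBP-1 target in liver, rose where Srebf1 fell (3.44 ± 0.246 RPKM with the inhibitor, 1.40 ± 0.206 with DMSO, limma adjusted p = 6.681e-05), and it rose between day 14 and day 2 as well (2.97 ± 1.21 RPKM on day 14, 0.952 ± 0.246 on day 2, limma adjusted p = 8.348e-05). Acsbg1, an acyl-CoA synthetase of brain, fell with the inhibitor (0.502 ± 0.142 RPKM, against 2.31 ± 0.219 with DMSO, limma adjusted p = 7.852e-06) and rose between day 14 and day 2. Of 7 mitochondrial fatty acid synthesis genes 2 were tested: Cbr4 rose with the EGFR inhibitor, Ndufab1 fell after HBEGF withdrawal, and both calls recurred on day 14 compared with day 2.

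Markers of microglia, pericytes and neurons were at low levels, and their sums in the EGFR and HBEGF groups are given above. Microglial markers summed to at most 1.97 RPKM, pericyte markers to at most 1.74 RPKM and neuronal markers to at most 7.52 RPKM in any library; the first 2 maxima were in HBEGF withdrawal libraries and the last in an EGFR inhibitor library.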
